A study of Meloidogyne incognita with 6 samples.

Results

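The 121 steady rows described here belong to the most abundant transcripts of Meloidogyne incognita, the southern root-knot nematode, in its second juvenile stage (J2). They were chosen in 3 steps from a deposited table of 20365 gene rows. The 18433 rows whose ID has no final lower-case letter were ranked by their mean level over the 6 libraries, the 300 highest were taken, and the rows whose middle-to-early ratio of stage means lay between 0.8 and the inverse of 0.8 were kept. Of the other 179 rows among the 300, 53 had a ratio under the lower bound and 126 a ratio over the upper bound. All 6 libraries came from wild type J2, with 3 libraries of early and 3 of middle J2, and levels are in FPKM (fragment counts corrected for the length of the gene model and for the depth of the library). The libraries held 5305983 to 7436406 counted reads each. Neither the definition of early and middle nor the origin of the replicates from separate cultures is given in the labels, so the spread between libraries given below may be technical. The choice used the level and the stage ratio, and both are therefore given as descriptions without a test.

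The J2 is the infective stage of a root-knot nematode. It hatches in the soil, does not feed until it has entered a root, and lives meanwhile on stored lipid, while its oesophageal glands fill with proteins that are later secreted into the plant. In animals the most abundant transcripts of a whole body commonly include those for ribosomal proteins, translation factors, muscle and cytoskeletal proteins and mitochondrial enzymes, and transcripts of even level are used as references when other genes are quantified. The files pair the IDs, which start with Minc, with no symbol, product or position, so the encoded proteins were not analysed here and neither the tissue nor any cell type could be checked against markers. In RNA from whole animals, fewer cells of a type and less RNA per cell cannot be told apart.

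The steady rows ranged over about 1 order of magnitude in level. Their means over the 6 libraries lay between 403 and 4844 FPKM, with a median of 638 FPKM and quartiles of 474 and 869 FPKM. A mean of at least 1000 FPKM was reached by 23 of them and a mean of at least 2000 FPKM by 7. They were fewer at the top of the ranking than below it: 12 of the 50 highest rows and 29 of the 100 highest rows were steady, against 47 at ranks 101 to 200 and 45 at ranks 201 to 300. By the same ratio bounds 167 of the 300 rows next in rank (55.7%) and 7671 of all 13142 rows averaging 1 FPKM or more (58.4%) would have been called steady.

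The steady rows held a similar part of every library. Their share of the FPKM sum was 11.6%, 11.1% and 10.9% in early replicates 1 to 3 and 10.7%, 10.7% and 10.7% in middle replicates 1 to 3. The mean share was 11.2 ± 0.342% in the early and 10.7 ± 0.0134% in the middle libraries (SD, n = 3), and all 3 middle libraries lay just below the lowest early one. Summed over the steady rows, the level was 100319 ± 3394 FPKM in the early and 100773 ± 845 FPKM in the middle libraries (SD, n = 3), so the lower share went with a higher FPKM sum of all rows in the middle libraries and not with a lower sum of the steady rows. As a share of the counted reads they held 7.93 ± 0.278% and 7.96 ± 0.0829% (SD, n = 3). The other 179 rows of the 300 held 19.1 ± 1.28% of the FPKM sum in the early and 22.6 ± 0.221% in the middle libraries (SD, n = 3). All of these stage shares follow in large part from the choice of rows by ratio.

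The 5 steady rows of highest mean level stood at ranks 4, 8, 9, 13 and 14 of the rows whose ID has no final letter. Minc09134, a gene model of 462 bases, was at 5466, 4432 and 5486 FPKM in early replicates 1 to 3 and at 4652, 3547 and 5482 FPKM in middle replicates 1 to 3. Its stages overlapped, with the lowest value in middle replicate 2 and nearly equal top values in early replicate 3, early replicate 1 and middle replicate 3. Its stage means were 5128 ± 603 and 4560 ± 970 FPKM (SD, n = 3), a middle-to-early ratio of 0.889. Without middle replicate 2 the ratio was 0.988, and without middle replicate 3 it was 0.799, just outside the bounds.

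Minc07565, of 1093 bases, gave 3313, 3020 and 3071 FPKM in the early and 2887, 3019 and 2552 FPKM in the middle libraries. The stages did not overlap, but early replicate 2 and middle replicate 2 were almost equal, and the stage means had a ratio of 0.90. Minc00928, of 558 bases, gave 3293, 2508 and 3312 FPKM in the early and 2689, 2648 and 2831 FPKM in the middle libraries, a ratio of 0.896. Its middle libraries lay inside the early range, because early replicate 2 was the lowest of the 6.

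Minc18849, a short model of 165 bases, gave 3060, 2500 and 3392 FPKM in the early and 2141, 2587 and 2708 FPKM in the middle libraries, a ratio of 0.831. Minc02046, of 471 bases, gave 3155, 2620 and 3134 FPKM in the early and 2535, 2047 and 2784 FPKM in the middle libraries, a ratio of 0.827. In both rows early replicate 2 fell within the middle range and the other early libraries lay above it. Without early replicate 2 the ratios of Minc18849 and Minc02046 were 0.768 and 0.781, outside the bounds. Without middle replicate 3 they were 0.792 and 0.771, and after rescaling to the same FPKM sum 0.794 and 0.790. The ratios of Minc07565 and Minc00928 stayed inside the bounds under each scaling and without any 1 library. All 5 steady rows of highest mean level had the lower mean in middle J2. Of the 12 steady rows among the 50 highest, 8 had a ratio under 1. Lower in the ranking the numbers were 7 of 17 at ranks 51 to 100, 15 of 47 at ranks 101 to 200 and 24 of 45 at ranks 201 to 300.

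**Figure D1:**
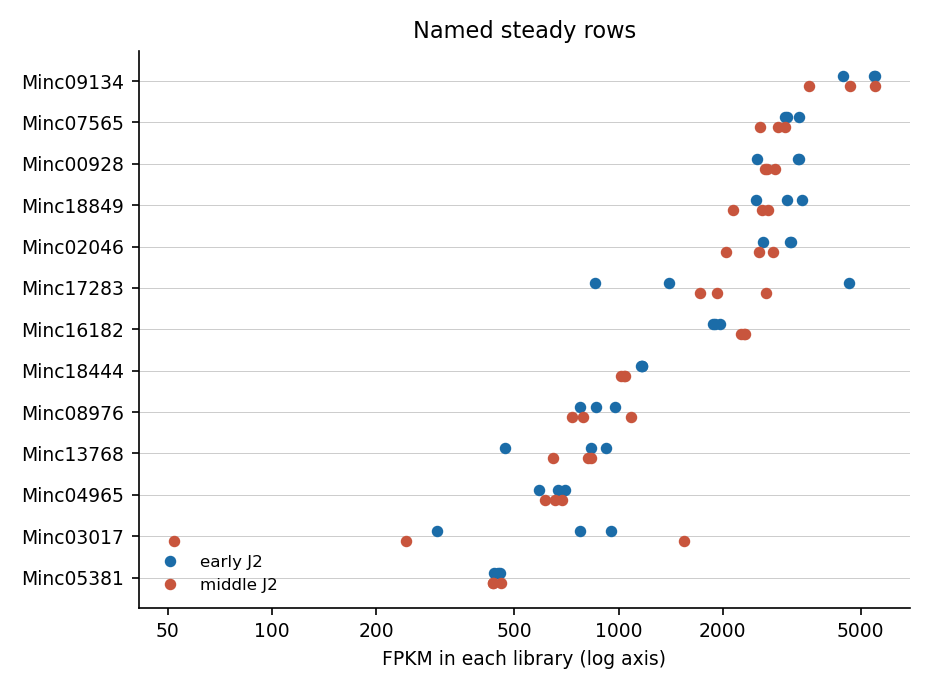
Level of named steady rows in each library (x axis, FPKM, log axis), ordered by mean level. Blue points are the 3 early and red points the 3 middle libraries. Most rows form tight clusters, such as Minc05381 between 434 and 456 FPKM, while Minc17283 and Minc03017 spread over several-fold within a stage.

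The ratios of the 121 rows filled the permitted range. Their median was 1.03, with quartiles of 0.909 and 1.14, and 67 rows had the higher mean in middle and 54 in early J2. A ratio between 0.9 and its inverse was found in 57 rows. The median over the 13142 rows tested was 0.998. At the lower bound Minc00150 was just inside with a ratio of 0.802, from an early level of 480 ± 10.9 FPKM and a middle level of 384 ± 47.9 FPKM, and Minc16064 was just outside with 0.787, from 526 ± 15.8 to 414 ± 33.6 FPKM (SD, n = 3). At the upper bound Minc14476 was just inside with 1.249, from 425 ± 32.7 to 531 ± 49.6 FPKM, and Minc03496 was just outside with 1.251, from 401 ± 38.1 to 501 ± 20.8 FPKM (SD, n = 3). The stages did not overlap in any of these 4 rows, and the ratios on either side of a bound lay close together. The bound on the rank lay between Minc04276, at rank 300 with a mean of 403 FPKM, and Minc19062, the next in rank, with 401 FPKM. Neither had a ratio inside the bounds, with 2.53 and 1.81.

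The rows whose stage means were nearest to each other were not those with the most even libraries. Minc08976, of 509 bases, had a ratio of 1.0, from 974, 774 and 858 FPKM in the early and 790, 733 and 1084 FPKM in the middle libraries. Its highest value was in middle replicate 3 and its lowest in middle replicate 2, a 1.48-fold range. Minc04965, of 718 bases, had a ratio of 0.998, from 670, 701 and 588 FPKM in the early and 655, 686 and 613 FPKM in the middle libraries. Here both stages had their lowest value in replicate 3 and their highest in replicate 2.

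The most even row over all 6 libraries was Minc05381, which was named after its values were seen. It is one of the longer models, of 2939 bases, with 447, 438 and 456 FPKM in the early and 456, 435 and 434 FPKM in the middle libraries. The stages overlapped fully, and the highest library was 1.05 times the lowest. Over the 121 rows the median of this highest-to-lowest ratio was 1.29, and it was under 1.5 in 109 of them, against 10 of the 179 other rows of the 300, which the choice by ratio kept apart by construction.

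The spread between replicates of a stage was not what the choice was made on, although a row that varies widely is less likely to end with similar stage means. The coefficient of variation (CV) was taken over the 3 libraries of each stage and averaged over both stages. Its median was 7.06% in the steady rows, with quartiles of 5.23% and 8.70%. It was 10.4% in the other 179 rows of the 300 and 12.2% over all 13142 rows tested. The rows tested go down to a mean of 1 FPKM, where fewer reads alone widen the CV, so the 12.2% is not a like comparison. A CV under 10% was found in 98 of the 121 steady rows (81.0%) and in 87 of the 179 other rows (48.6%). The same order was seen one step down the ranking: among the next 300 rows the median CV was 6.71% in the 167 rows inside the ratio bounds and 9.53% in the 133 rows outside. Rows are not replicates, and these differences are given without a test.

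Counting error was a small part of this spread. The steady rows had a median of 2653 reads per library, and 110 of the 121 had at least 1000 reads in every library. Reads were recovered from the steps of the FPKM values, and the error expected from these counts alone had a median of 1.94%. The observed CV was wider than the counting error in 119 rows and over 2 times as wide in 104, with a median of 3.65 times. The lowest CV, 0.869%, was that of Minc18444 (868 bases), where counting error alone was 1.32%. It had 1158, 1165 and 1171 FPKM in the early and 1042, 1019 and 1037 FPKM in the middle libraries. With replicates this close its stages did not overlap, at a ratio of 0.887. Minc16182 (482 bases) had the next lowest CV, 1.97%, with 1962, 1878 and 1895 FPKM in the early and 2325, 2251 and 2300 FPKM in the middle libraries. Its ratio was 1.20, and again every middle library lay on the same side of the early ones.

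**Figure D2:**
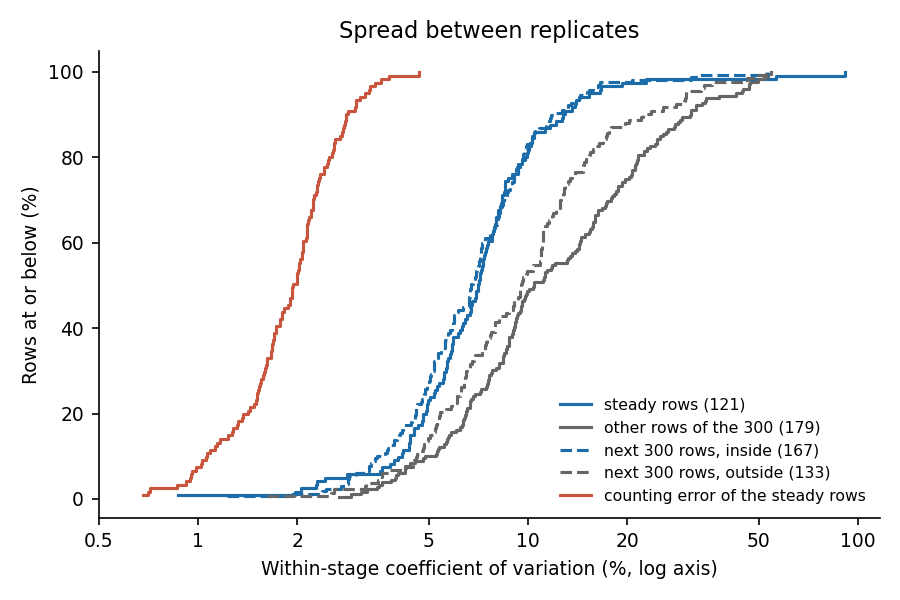
Cumulative share of rows (y axis, %) at or below each within-stage CV (x axis, %, log axis) for the 121 steady rows, the other 179 rows of the 300, and the next 300 rows in rank inside and outside the ratio bounds. The red line is the counting error of the steady rows, with a median of 1.94% against an observed 7.06%.

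For a few rows the word steady held for the stage means and not for the libraries. A CV of at least 20% was found in 3 of the 121 rows. Minc03017, of 638 bases, was at 773, 948 and 298 FPKM in the early and at 243, 1541 and 51.9 FPKM in the middle libraries. Middle replicate 2 was the highest and middle replicate 3 the lowest of the 6, a 29.7-fold range, resting on 6412 and 202 reads. Its stage means of 673 ± 336 and 612 ± 810 FPKM (SD, n = 3) gave a ratio of 0.909. Without middle replicate 2 the ratio was 0.219, without middle replicate 3 it was 1.33, and without early replicate 3 it was 0.711.

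Minc17283, of 516 bases, was at 1400, 4627 and 854 FPKM in the early and at 1930, 2671 and 1715 FPKM in the middle libraries. Early replicate 2 stood far above the rest and early replicate 3 was the lowest. Its ratio was 0.918, but 1.87 without early replicate 2 and 0.699 without early replicate 3. In Minc03017 and Minc17283 only 1 of the 9 pairs of an early and a middle library had a ratio inside the bounds. The third row, Minc13768 (306 bases), which was named after its values were seen, gave 833, 469 and 920 FPKM in the early and 832, 647 and 815 FPKM in the middle libraries. Its lowest value was in early replicate 2 and the ratio was 1.03.

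The 6 libraries did not contribute alike to the spread. Early replicate 1 was the highest of the 6 libraries in 34 steady rows and the lowest in 3. Early replicate 3 was the lowest in 38 and the highest in 11. Among the middle libraries, replicate 1 was the highest in 31 and the lowest in 12 rows, and replicate 3 the lowest in 30 and the highest in 17. The median departure from the stage mean was 3.98%, -1.50% and -2.82% in early replicates 1 to 3 and 2.19%, -0.997% and -2.19% in middle replicates 1 to 3. These shifts of the whole set were smaller than the CV of a typical row. The median size of the departure, whatever its sign, was 3.27% to 5.30% in the 6 libraries, against 6.04% to 10.2% in the other 179 rows, and it was the smaller in each of the 6 libraries.

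**Figure D3:**
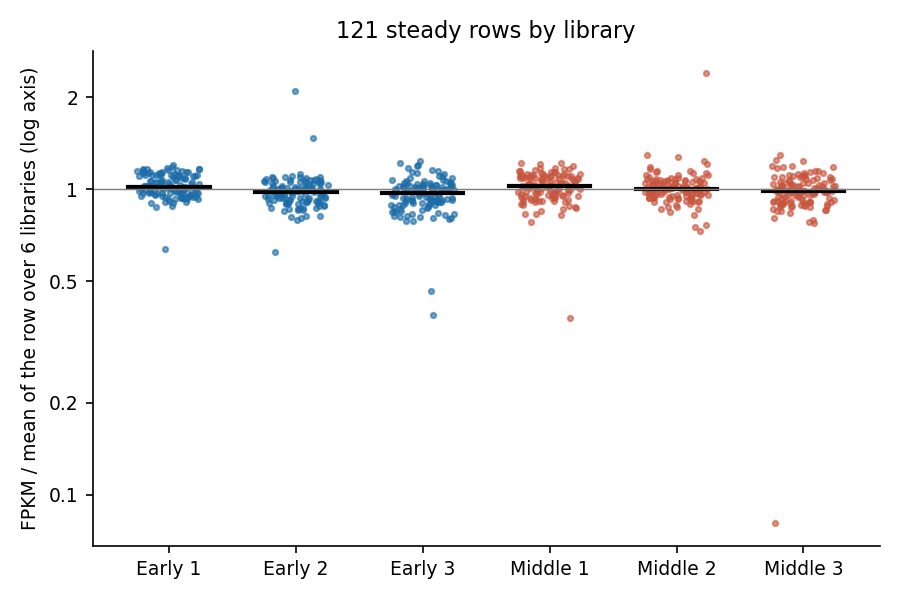
Level of the 121 steady rows in each library (x axis) divided by the mean of the row over the 6 libraries (y axis, log axis). Points are rows and black bars medians, which lie between 0.971 in early replicate 3 and 1.03 in middle replicate 1. The points far from 1 belong mainly to the rows with a CV of at least 20%.

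Whether the ratio held in libraries that had no part in the choice was read from pairs left out. For each of the 9 pairs of an early and a middle library, the rows were chosen again from the other 4 libraries, which gave 106 to 131 rows, 100 to 116 of them among the 121. In the pair left out, 68.7% to 85.8% of these rows had a ratio inside the same bounds, with a mean of 77.3%. Of the remaining rows of each 300, 7.10% to 20.6% did, with a mean of 13.3%. The first share exceeded the second in each of the 9 pairs. The remaining rows were those placed outside the bounds by the other 4 libraries, so the gap describes how far ratios repeated among the 300 rows as a whole. It is no trait of the steady rows alone, and no share over all rows tested is given for single pairs. The median ratio of the chosen rows in the pair left out lay between 0.963 and 1.08. The 3 lowest shares all came from pairs with early replicate 3, at 68.7%, 70.4% and 72.2%. The pairs share libraries and are not replicates, so no p was computed.

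**Figure D4:**
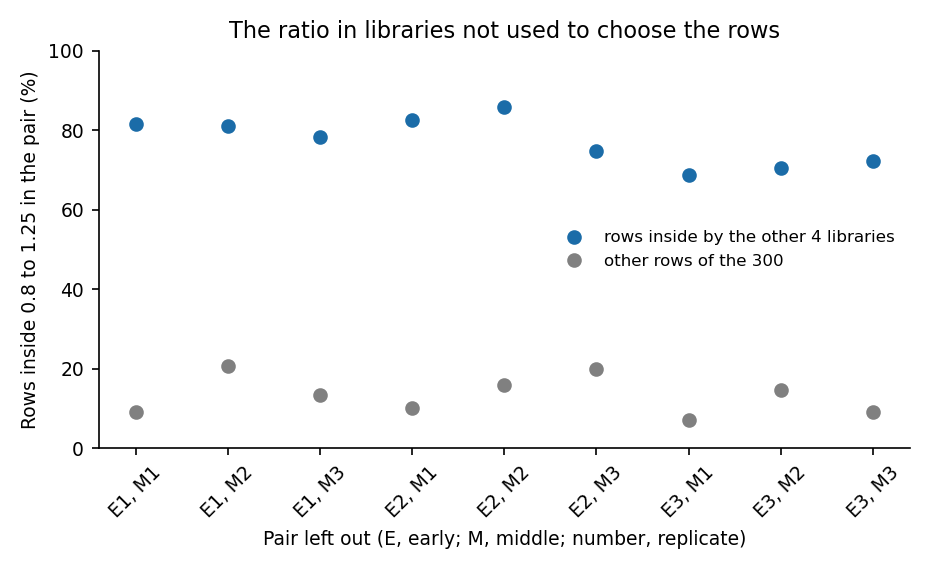
Share of rows (y axis, %) with a ratio inside the bounds in each pair of libraries left out of the choice (x axis). Blue points, rows chosen from the other 4 libraries, lie between 68.7% and 85.8%, and grey points, the other rows of the 300, between 7.10% and 20.6%.

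By the single pairs of libraries, 53 of the 121 rows had all 9 ratios inside the bounds. This count describes the libraries that chose the rows. In these 9 pairs between 92 and 109 of the 121 rows lay inside. Leaving out each library in turn and choosing again kept between 105 and 119 of the 121 rows, and 92 rows were kept in all 6 of these choices. The lowest number was reached without early replicate 2.

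In the linear model fitted to all rows on log2(FPKM + 1), a scale on which a pseudocount of 1 is negligible at these levels, no steady row passed an adjusted p of 0.05, where 18.4% of the 13142 rows tested did (limma, Benjamini-Hochberg adjustment). At an unadjusted p under 0.05 the count was 23 of the 121, where 32.8% of all rows tested passed. With limma voom on the recovered reads 12 of the 121 passed the adjusted threshold, 9 higher and 3 lower in middle J2, where 17.4% of all rows did. Without any overlap between the stages were 48 of the 121 rows (27 higher and 21 lower in middle J2), where 38.4% of all rows tested had none. These counts rest on the contrast that chose the rows, and nothing is read from them. The median log2 fold change was 0.051 in the steady rows and -0.007 over all rows tested. After rescaling of each library to the same FPKM sum these medians were -0.016 and -0.069, so the sign of the small median shift of the steady rows depended on the scale.

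The width of the model's 95% interval depends on the replicate spread and, through the intensity trend of the fit, on the mean level. Minc16182, with a CV of 1.97% at 2102 FPKM, had a half-width of 0.267. Minc03205, which was named after its values were seen, had a CV of 7.06% at 403 FPKM and a half-width of 0.213. The widths below are therefore not a reading of replicate spread alone. Its median half-width was 0.239 on the log2 scale in the steady rows, 0.320 in the other 179 rows of the 300 and 0.338 over all rows tested. The whole 95% interval lay inside the ratio bounds in only 39 of the 121 rows (32.2%). For the other steady rows a ratio beyond a bound was thus within the interval. That count also rests on the contrast that chose the rows, and no share over all rows tested is given for it. In 17 rows the half-width alone exceeded the distance from a ratio of 1 to a bound, so that a shift of that size would not reach an unadjusted p of 0.05 in them. The adjusted threshold was stricter. Minc14476 and Minc03496, at ratios of 1.249 and 1.251, had half-widths of 0.237 and 0.221 and limma adjusted p of 0.068 and 0.051, and neither was called. The 17 are therefore not all the rows in which a shift to a bound would go uncalled with 3 libraries per stage. At the lower bound Minc16064, just outside, was called with a limma adjusted p of 0.031. Minc00150, just inside, was not called, with a limma adjusted p of 0.064.

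The lengths of the gene models were recovered with the reads, and short models were a smaller part of the steady than of the other abundant rows. The median was 642 bases in the 121 rows, with a range from 156 to 4857 bases, 587 bases in the other 179 rows of the 300 and 939 bases over all rows tested. Models under 450 bases made up 24 of the 121 steady rows (19.8%) and 57 of the 179 others (31.8%), and the lower quartiles were 482 and 389 bases. Rows are not replicates, and no test was made. A length that is a multiple of 3, as a coding sequence without untranslated ends has, was found in 51 of the 121 (42.1%) and 77 of the 179 (43.0%), against 9800 of the 13142 rows tested (74.6%).

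The steady rows were spread over the ID numbers. Another of the 300 rows stood at the next or previous number for 11 of the 121 (9.1%) and for 19 of the 179 others (10.6%). Among the 121 there were 3 such pairs, which were named after their values were seen: Minc02150 with Minc02151, Minc08976 with Minc08977, and Minc09871 with Minc09872. The models of a pair differed in length, at 722 and 1068, 509 and 541, and 642 and 407 bases. Their ratios were 0.928 and 0.939 in the first pair, 1.0 and 1.14 in the second and 0.864 and 1.04 in the third. Whether reads were shared between near-identical gene copies is not given in the sources used here, so the level of any row is uncertain where such copies exist.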

How the data were processed

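RNA sequencing of 6 libraries was analysed from a table of FPKM values that the authors deposited, given per library. CASAVA and TopHat2 are named in the submitters' processing notes. For versions, counting, genome build, annotation, strand and multiply matching reads, nothing was stated in the sources used here. A further 16 unnamed columns were not used. No ID could be paired with a name, so the planned gene lists were not applied, and no sequence is shown.

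The members, lists and tests were chosen with earlier results of these data known. The rows printed by ID were set by rule: the 5 of highest mean, the 2 lowest and 2 highest in CV, the 2 with ratios closest to 1, and the rows at each bound. Exceptions are named as such.

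Rows averaging 1 FPKM or more were tested by limma 3.58.1 in R 4.3.3 on log2(FPKM + 1), with an intensity trend, two-sided, with Benjamini-Hochberg adjustment at 0.05 over all 13142 rows. The procedure was tested on simulated data in which every row had the same spread between replicates beyond counting error. Rows of the real data differ in spread, and nothing about the fit to them is read from that test. Whole reads and lengths were recovered from the FPKM steps, with denominators of 5305983 to 7436406 reads. In simulated data 99.0% of 2602 rows with at least 500 reads in each library came out right. In the other 26 the reads and the length came out too low by a common factor. Counting error is 1 over the square root of the reads, covers counting error only, and assumes that a recovered count is an independent read. Alternatives held other pseudocounts, filters, scalings, bounds, a replicate block, voom and leaving out each library. Python 3.11.15 with numpy 2.4.6, pandas 2.3.3 and matplotlib 3.10.9 served for all other steps.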

Additional observations from a re-analysis of the deposited data

How the results depend on the processing

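The number of steady rows was 119 to 126 under 3 other scalings, 107 to 128 without any 1 library, and 121 with ratios of medians (113 shared). It was 76 from the 200 and 233 from the 500 highest rows and 57 with bounds of 0.9 and its inverse, by construction. Under all 3 scalings 113 of the 121 rows were kept. No steady row was called in the limma fits other than 5 (all lower) after rescaling to the same FPKM sum, 12 with voom, and 0 to 3 without 1 library (3 without middle replicate 2, 1 without middle replicate 3). The cause of these differences was not tested. Over all rows the fits with such calls passed, in the same order, 2544 of 13138, 2508 of 14388, 2263 of 13141 and 2207 of 13162 rows. The counts of steady rows rest on the contrast that chose them. Calls over all rows went from 2421 to between 1362 and 2263 without 1 library, with fewer libraries by construction (1362 without middle replicate 1, 1456 without early replicate 1, 1503 without early replicate 3). On the scale of the same FPKM sum the calls split into 1009 higher and 1535 lower, in place of 1225 and 1196. The median CV was 7.91% with median-ratio scaling and 5.96% to 7.10% without 1 library, and in each setting it was below that of the abundant rows outside the bounds. The share inside the bounds in pairs left out was 74.0% to 79.5% with other scalings or numbers of ranked rows, against 13.3% to 14.8% of the remaining rows. Rows chosen with bounds of 0.9 and its inverse were still read against the wider bounds of 0.8 and its inverse. Their share was 83.2%, against 27.5% of the remaining rows, and is not the same measure. With the replicate block 2187 rows and 0 steady rows passed. Libraries with the same number had correlations of their departures from the stage means of 0.005, 0.089 and 0.120. Libraries with different numbers had correlations of -0.153 to 0.077. Early replicates 2 and 3 thus correlated best with their own number, and early replicate 1 did not. All of these correlations were small, and the numbers were not taken as pairs. Most ratios of the named rows (167 of 171) moved by less than 1 SD under scalings and left-out libraries. That SD came from the row's own replicates, so leaving out 1 library could hardly exceed it, and the count says little about robustness. Minc03017, for example, counted as unmoved when its ratio went from 0.909 to 0.219 without middle replicate 2, at an SD of 1.29. Depth limits few of these rows, whose lowest count was 202 reads.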

Other observations

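The pattern of Minc03017, the steady row of widest spread, was followed in part by other rows of the table. The 6 rows below were picked after the values were seen. They were those whose log2(FPKM + 1) over the 6 libraries correlated best with that of Minc03017. Only rows averaging 10 FPKM or more with at least a 2-fold range were considered. A correlation takes no account of the level or of the size of a change, so their likeness is one of pattern and a description. Middle replicate 3 was the lowest library in all 6 rows, and middle replicate 2 the highest in 5 of them. The exception was Minc18114a, which was highest in early replicate 2, at 302 FPKM against 269 FPKM in middle replicate 2. In 5 of the 6 rows (Minc02354, Minc14812, Minc03245, Minc01100 and Minc18114a) the range over the libraries was 2.17-fold to 2.44-fold, far below the 29.7-fold range of Minc03017. The sixth row, Minc17865, of 984 bases, gave 253, 390 and 124 FPKM in the early and 105, 486 and 37.0 FPKM in the middle libraries. It followed the same order of the 6 libraries as Minc03017, with middle replicate 2 at the top and middle replicate 3 at the bottom, over a 13.1-fold range. Its ratio of stage means was 0.819. Minc02354 and Minc03245 had that same order of the 6 libraries, so the order was not particular to Minc17865. Minc14812, of 2167 bases, gave 392, 462 and 291 FPKM in the early and 313, 489 and 201 FPKM in the middle libraries, a 2.44-fold range with a ratio of 0.876. What these rows encode and what the libraries with high or low values share was not tested.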
